A study of Mus musculus with 17 samples.

Results

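RNA levels of 8 long non-coding genes that carry small nucleolar RNAs (snoRNAs) in their introns, Gas5, Snhg1, Snhg3, Snhg4, Snhg5, Snhg6, Snhg8 and Snhg12, were followed in differentiating mouse embryonic stem cells. The genes were found by symbol and are 8 of the 54532 genes with deposited values. R1/E embryonic stem cells, either wild-type or carrying a CRISPR/Cas9 knockout of Usb1, were sequenced without retinoic acid (RA, day 0) and after RA treatment for 1 day and 3 days. RA drives these cells out of self-renewal. The 17 libraries held 2 biological replicates of wild-type cells at day 0 and 3 of each of the other 5 groups, namely knockout cells at day 0 and both genotypes at day 1 and day 3. The knockout was represented by the single line KO-1, and its effect cannot be told apart from a difference between clones. USB1 trims the 3′ end of U6 snRNA, a core RNA of the spliceosome, and the study asked whether its loss affects exit from pluripotency.

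A snoRNA host gene is transcribed as a long precursor. Splicing releases introns from which snoRNAs are trimmed, and the joined exons form a separate spliced RNA. Box C/D snoRNAs guide 2′-O-methylation and box H/ACA snoRNAs guide pseudouridylation, mostly of ribosomal RNA. The spliced RNAs of these hosts commonly begin with a run of pyrimidines like the 5′TOP start of ribosomal protein mRNAs, and several of them, Gas5 among them, are known substrates of nonsense-mediated decay (NMD). Gas5 takes its name from its accumulation in growth-arrested cells.

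Annotation of 7 of the 8 genes was available in GENCODE M21 on GRCm38. Gas5 lies at chr1:161034422-161038539 on the plus strand, Snhg1 at chr19:8723475-8726443 on the plus strand and Snhg12 at chr4:132308623-132311024 on the plus strand. Snhg3 lies at chr4:132348014-132353686, Snhg5 at chr9:88521050-88522929, Snhg6 at chr1:9941959-9944118 and Snhg8 at chr3:123507552-123508404, all on the minus strand. Coordinates of Snhg4 were not used here. Together the 7 genes enclose 29 annotated snoRNA genes on the same strand, 10 in Gas5, 8 in Snhg1, 5 in Snhg12, 2 each in Snhg3 and Snhg5, and 1 each in Snhg6 and Snhg8. Some snoRNAs are annotated more than once at nearly the same position, as Snord80 in Gas5 and Snora16a in Snhg12 are.

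The 5 snoRNA genes below show what the hosts carry. The sequences are those of GENCODE M21, written 5′ to 3′ in DNA letters. In box C/D snoRNAs, capitals mark TGATGA within the first 20 bases (box C) and CTGA within the last 16 (box D), and in the box H/ACA snoRNA they mark ACA within the last 8 bases.
Snord47, in Gas5, chr1:161038082-161038158 (+): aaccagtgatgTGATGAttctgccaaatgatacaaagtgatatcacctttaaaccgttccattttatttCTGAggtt
Snord50a, in Snhg5, chr9:88521529-88521600 (-): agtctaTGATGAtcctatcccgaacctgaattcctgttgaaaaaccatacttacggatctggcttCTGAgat
Snord87, in Snhg6, chr1:9942463-9942549 (-): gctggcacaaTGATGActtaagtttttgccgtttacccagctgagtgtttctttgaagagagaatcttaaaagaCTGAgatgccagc
Snord99, in Snhg12, chr4:132310691-132310764 (+): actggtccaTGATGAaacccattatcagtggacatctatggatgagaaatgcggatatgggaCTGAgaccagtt
Snora24, in Snhg8, chr3:123507937-123508066 (-): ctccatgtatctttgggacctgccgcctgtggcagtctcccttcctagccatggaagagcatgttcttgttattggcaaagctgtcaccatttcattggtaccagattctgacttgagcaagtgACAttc
Of the 29 enclosed genes, 17 held both box C and box D in these windows, 6 held ACA, and 6 held neither with these exact letters.

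The starts of the host genes are shown next, because a pyrimidine run at or near the first base is the sequence feature of TOP mRNAs. The windows cover 40 bases before and 30 bases from the RefSeq start (GRCm38.p6). Capitals mark a run of at least 5 C or T that overlaps the stretch from 1 base before the start to 9 bases after it.
Gas5, chr1:161035126-161035195 (+): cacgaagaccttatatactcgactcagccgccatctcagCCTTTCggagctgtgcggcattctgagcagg
Snhg12, chr4:132308638-132308707 (+): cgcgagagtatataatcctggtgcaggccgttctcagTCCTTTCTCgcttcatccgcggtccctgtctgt
Snhg8, chr3:123508307-123508376 (-): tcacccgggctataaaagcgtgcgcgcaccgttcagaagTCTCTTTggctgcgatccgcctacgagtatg
Snhg5, chr9:88522868-88522937 (-): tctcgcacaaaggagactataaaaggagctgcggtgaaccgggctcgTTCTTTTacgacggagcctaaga
Snhg1, chr19:8723447-8723516 (+): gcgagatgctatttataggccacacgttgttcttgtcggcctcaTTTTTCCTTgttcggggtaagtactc
RefSeq listed 7 such windows for 6 of the genes, with 2 for Gas5. A run was present in 6 of the 7 (85.7%), against 32.2% of 32851 windows over all genes and 54.4% of 68 windows of ribosomal protein genes. The run began 3 bases before the start in Snhg12, 1 base before it in Gas5 and Snhg8, and 2, 4 and 7 bases after it in Snhg3, Snhg1 and Snhg5. The window without a run was the upstream Gas5 start at base 161034601. TATAAA on the given strand, 40 to 16 bases before the start, was found for Snhg8 and Snhg5, which is 28.6% of the 7 windows against 1.99% of all. These are matches of letters in a window and say nothing of which start the cells used.

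The deposited values are TPM, in which reads are divided by gene length and then scaled to a fixed total per library. Comparing the levels of different hosts therefore depends on their annotated lengths, which take in introns for some of them. Each value is also a share, so a change in abundant genes shifts the values of the others. Reads on genes were recovered from TPM and annotated exon lengths and ranged from 15404379 to 17300186 per library. Between 751 and 2235 of them fell on Gas5, 586 to 1710 on Snhg1, 494 to 1489 on Snhg5, 383 to 1082 on Snhg12, 309 to 694 on Snhg6 and 86 to 299 on Snhg8. Snhg3 had only 3 to 36, so its differences are poorly determined. All 8 genes had at least 1 TPM in at least 2 libraries and were tested.

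What TPM can show of these loci is limited by how they are annotated. The annotated exons of Snhg1, Snhg8 and Snhg12 together cover the whole gene. Those of Gas5 cover 3760 of its 4118 bases and those of Snhg5 1730 of its 1880. Reads from introns of these genes therefore counted toward the host. Of the 29 enclosed snoRNA genes, 28 were listed at 0 in every library. The exception, Snord87 in Snhg6, had at most 5 reads in any library and more than 0 in 9 of 17. Across the table, 149 snoRNA genes lie wholly inside an exon of another gene and 0 of them were above 0, whereas 381 of 1321 that touch no exon were above 0 (28.8%). The values below therefore describe host RNA, and snoRNA levels were not measurable for these loci.

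Some hosts share their locus with another gene, and strand-specific counting is not stated. Snhg3 overlaps Rcc1 on the same strand over 5592 bases, and Rcc1, a regulator of the RAN GTPase, had a mean level of 137 TPM over the 17 libraries, so reads assigned to Snhg3 are uncertain. Gas5 overlaps the start of Zbtb37 by 428 bases on the other strand, and Snhg6 overlaps Mcmdc2 by 127 bases on the other strand. Snhg1 starts 106 bases from Slc3a2, a subunit of amino acid transporters, which is read in the opposite direction.

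A few libraries stood apart, wild-type replicate 1 at day 0 the furthest. It had 239 genes with a single read and 17090 genes above 0. The other wild-type library of day 0 had 1352 and 22314, and knockout replicate 1 at day 3 had 1224 and 21898, whereas all other libraries had 2150 to 2467 genes with a single read. The 2 wild-type libraries of day 0 also differed for the hosts with fewest reads, with Snhg8 at 73.4 and 28.9 TPM and Snhg3 at 7.64 and 2.06 TPM. Results for these 2 genes that use wild-type cells at day 0 are therefore also given without each of these 2 libraries in turn. A fit without 1 of them leaves a single wild-type library at day 0. The spread behind its p-values and counts then comes from the other groups. Without knockout replicate 1 at day 3 the counts of hosts called at day 3 against day 1 and day 0 in knockout cells were 4 and 7, and that between genotypes at day 3 was 0.

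The labels were checked first. Usb1 mRNA was 38.5 ± 1.99 TPM in wild-type cells at day 0 (SD, n = 2) and 16.2 ± 1.47 in knockout cells (n = 3), and it stayed lower in knockout cells at day 1 (20.2 ± 1.52 against 52.5 ± 4.21, n = 3 each) and day 3 (17.4 ± 2.86 against 33.8 ± 1.94). Pou5f1, which encodes the pluripotency factor OCT4, stood at 1382 ± 15.4 TPM without and 1390 ± 97.7 TPM with the knockout at day 0. It dropped to 66.6 ± 7.18 and 93.7 ± 2.62 TPM at day 3. These levels fit the label of stem cells leaving self-renewal. In bulk RNA, fewer cells of a type and less RNA per cell cannot be told apart.

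At day 0 no host gene separated the genotypes by the test used. The summed level of the 8 genes was 704 ± 13.9 TPM in wild-type cells (n = 2) and 679 ± 33.7 TPM in knockout cells (n = 3). In wild-type cells Snhg5 was highest at 168 ± 8.81 TPM, followed by Gas5 at 120 ± 6.29, Snhg1 at 119 ± 2.82, Snhg6 at 104 ± 10.7 and Snhg12 at 94.7 ± 9.93. Snhg8 at 51.1 ± 31.5 and Snhg4 at 42.8 ± 1.21 were lower, and Snhg3 was lowest at 4.85 ± 3.95. Neighbours in this order did not separate for Gas5 and Snhg1, for Snhg6 and Snhg12, or for Snhg8 and Snhg4, whose libraries overlapped. The order rests on annotated exon lengths, which are 1730 bases for Snhg5, 3760 for Gas5 and 2969 for Snhg1. Recovered reads ran the other way, with 1337 and 1335 for Snhg5, 2235 and 1924 for Gas5 and 1710 and 1533 for Snhg1.

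None of the 8 genes differed between genotypes at day 0 by limma at an adjusted p under 0.05, while 5.08% of the 21871 genes tested were higher and 6.80% lower in knockout cells. These shares depend on single libraries, since the 1110 higher and 1488 lower genes became 461 and 738 without wild-type replicate 1, 2644 and 2373 without wild-type replicate 2, and 66 and 112 when only the 5 libraries of day 0 were fitted. Without knockout replicate 2 or 3 they were 697 and 769 or 680 and 876. The count at an unadjusted p under 0.05 was also 0, and limma-voom on recovered reads called 0 of the 7 genes it could test. The median log2 fold change of the 8 genes, knockout over wild-type on the log2(TPM + 1) scale used throughout, was -0.10, against 0.00 for all genes. Snhg1 had every knockout library below every wild-type library, at 115, 112 and 108 against 121 and 117 TPM. Its fold change was -0.09 (SE 0.12, adjusted p = 0.686 by limma). For Snhg8 the fold change was -0.11 (SE 0.25, adjusted p = 0.824). Without wild-type replicate 1 it was 0.55 (adjusted p = 0.0402), and without wild-type replicate 2 it was -0.77 (adjusted p = 0.00213), so the 2 wild-type libraries decide its direction. Snhg3 moved likewise, from -0.64 (SE 0.38, adjusted p = 0.295) to 0.11 without replicate 1 (adjusted p = 0.916) and to -1.39 without replicate 2 (adjusted p = 0.0135).

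**Figure D1:**
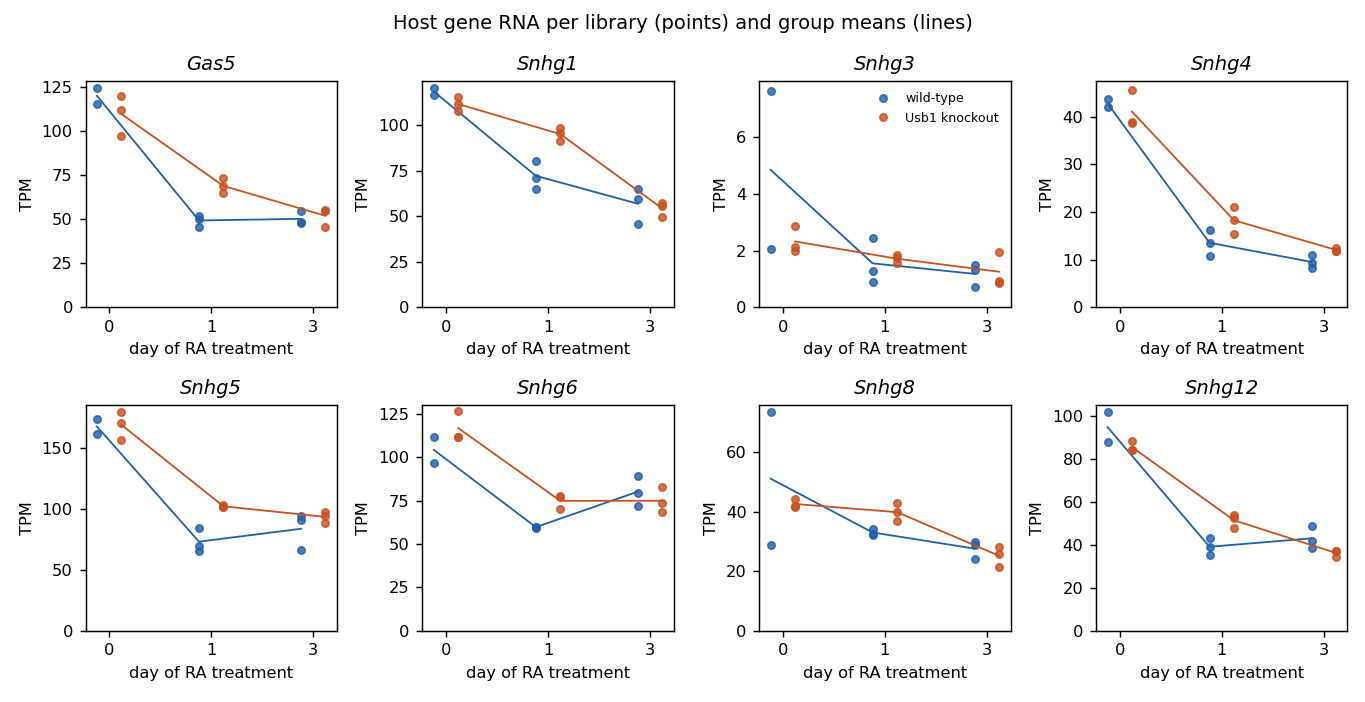
TPM of the 8 host genes (vertical axes, each starting at 0) by day of RA treatment, with 1 point per library and lines through group means, for wild-type (blue, n = 2 at day 0 and 3 later) and knockout cells (orange, n = 3). At day 1 the wild-type points of Gas5 lie between 45.8 and 51.8 and the knockout points between 64.6 and 73.1, whereas at day 3 the genotypes overlap.

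RA treatment for 1 day lowered most of the host RNAs in wild-type cells. The summed level dropped to 342 ± 25.4 TPM (n = 3). Of the 8 genes, 7 fell and 0 rose at an adjusted p under 0.05, against 12.5% of all genes tested that fell and 25.5% that rose. A fall of at least 2-fold was reached by 5 of the 8 and by 3.88% of all genes. The median log2 fold change of the 8 was -1.13 and that of all genes was 0.17. These all-gene values depend on scaling. The 2742 falls and 5569 rises became 4181 and 3843 with libraries set to an equal median, and 3683 and 4134 after quantile normalization. The all-gene median was 0.02 and 0.0013 under these scalings, and 7 hosts passed under each.

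Among the hosts of box C/D snoRNAs, Gas5 stood at 124 and 116 TPM in the untreated wild-type libraries and at 45.8, 50.04 and 51.8 TPM after 1 day of RA. Every day 1 library was below every day 0 library, and the level was 2.41 times lower (-1.27 on the log2 scale, SE 0.10, adjusted p = 3.41e-07). Snhg5 was at 162 and 174 TPM at day 0 and 65.4, 84.9 and 69.5 TPM at day 1. Its libraries did not overlap either, and the log2 fold change was -1.19 (SE 0.13, adjusted p = 6.33e-06). Snhg1, with 8 snoRNA genes inside it, stood at 121 and 117 TPM and then at 65.1, 80.4 and 71.1 TPM. That is a smaller fall, -0.71 (SE 0.12, adjusted p = 0.00029). Snhg6, host of Snord87, went from 96.6 and 112 TPM to 59.3, 60.0 and 59.8 TPM, which are the most tightly grouped values of its series. This corresponds to -0.79 on the log2 scale (SE 0.10, adjusted p = 2.45e-05).

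Snhg12, which encloses both H/ACA and C/D snoRNAs, dropped from 87.7 and 102 TPM to 35.04, 43.0 and 39.2 TPM. The fall, -1.26 in log2 units (SE 0.10, adjusted p = 3.55e-07), was close in size to that of Gas5. Snhg4 went from 42.0 and 43.7 TPM to 10.8, 16.2 and 13.5 TPM. This was the largest fold change of the 8, -1.61 (SE 0.16, adjusted p = 1.95e-06), with no overlap between libraries.

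Snhg8 and Snhg3, which enclose H/ACA snoRNAs alone, gave no firm answer. Snhg8, host of Snora24, started at 73.4 and 28.9 TPM and was at 34.3, 32.6 and 32.3 TPM a day later. The libraries overlapped and the log2 fold change of -0.47 did not pass (SE 0.25, adjusted p = 0.162). Without wild-type replicate 1 at day 0 it was 0.19 (adjusted p = 0.354), and without replicate 2 it was -1.13 (adjusted p = 3.38e-05). Snhg3, host of the Snora73 pair, fell by 1.06 on the log2 scale (SE 0.38, adjusted p = 0.0393). Without replicate 1 at day 0 the value was -0.31 (adjusted p = 0.566), and without replicate 2 it was -1.81 (adjusted p = 0.00118). The Snhg3 call was also lost without wild-type replicate 2 or 3 or knockout replicate 1 at day 1 (adjusted p = 0.0898, 0.125 and 0.0501).

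From day 1 to day 3 the sum of the hosts in wild-type cells stayed level, at 352 ± 42.4 TPM. In this interval 19.5% of all genes tested rose and 24.3% fell, and of the 8 hosts 1 rose and 2 fell. These counts are near the shares of all genes. By at least 2-fold, 7.70% of all genes rose, 7.54% fell and 0 hosts did either. Snhg6 rose from the day 1 values given above to 79.6, 89.1 and 71.7 TPM, every library above day 1, by 0.41 on the log2 scale (SE 0.09, adjusted p = 0.00157). Snhg1 fell by 0.35 (SE 0.11, adjusted p = 0.0153) to 59.5, 65.1 and 45.8 TPM, with overlap between days. Snhg4 fell by 0.46 (SE 0.14, adjusted p = 0.0151) to 8.29, 10.9 and 9.30 TPM, also with overlap. Gas5 did not pass (0.03, SE 0.09, adjusted p = 0.861), with 54.3, 48.6 and 47.5 TPM on day 3. The calls for Snhg1 and Snhg4 were lost without wild-type replicate 2 at day 1, which left 1 call. That for Snhg1 was also lost without replicate 3 at day 3 and that for Snhg4 without replicate 1 at day 3 (adjusted p = 0.0719 and 0.0713).

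Against day 0, all 8 hosts had fallen in wild-type cells by day 3, where 22.5% of all genes tested had fallen and 29.6% had risen. The fall was at least 2-fold for 6 hosts and for 9.68% of all genes. Over all genes, the 4927 falls and 6469 rises became 6196 and 5332 with an equal median and 5812 and 5499 after quantile normalization. All 8 hosts passed under each of these scalings. Log2 fold changes ran from -2.07 for Snhg4 (SE 0.16, adjusted p = 3.81e-08) through -1.24 for Gas5 (SE 0.10), -1.12 for Snhg12 (SE 0.10), -1.06 for Snhg1 (SE 0.12) and -1.01 for Snhg5 (SE 0.13) to -0.38 for Snhg6 (SE 0.10, adjusted p = 0.00535). The order by TPM, which rests on annotated lengths, had also changed. Snhg6 at 80.1 ± 8.72 TPM was now next to Snhg5 at 83.9 ± 15.4 TPM and overlapped it. Snhg3 had a fold change of -1.26 (SE 0.38, adjusted p = 0.0115) and Snhg8 of -0.73 (SE 0.25, adjusted p = 0.0256). Without wild-type replicate 1 at day 0 these were -0.51 (adjusted p = 0.266) and -0.07 (adjusted p = 0.738), which leaves 6 falls, and without replicate 2 they were -2.01 (adjusted p = 0.000294) and -1.38 (adjusted p = 1.96e-06). The call for Snhg6 was lost without wild-type replicate 2 at day 0 (-0.27, adjusted p = 0.0753) and that for Snhg8 also without replicate 3 at day 3 (-0.64, adjusted p = 0.0778).

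In knockout cells Gas5, Snhg4 and Snhg12 fell in both intervals, Snhg5 and Snhg6 from day 0 to day 1, and Snhg1 and Snhg8 from day 1 to day 3. The sum of the 8 genes stood at 452 ± 9.10 TPM at day 1 and 349 ± 3.85 TPM at day 3 (n = 3 each). From day 0 to day 1, 5 of the 8 fell, against 11.7% of all genes, with a median of -0.65 for the hosts and 0.02 for all genes. From day 1 to day 3, 5 of the 8 fell, against 19.4% of all genes, with medians of -0.45 and 0.04. From day 0 to day 3, 7 of the 8 fell, against 21.8%, with medians of -0.94 and 0.03. Falls of at least 2-fold numbered 1, 0 and 4 in these 3 intervals, against 2.87%, 5.73% and 8.04% of all genes. With an equal median the 2561, 4247 and 4770 genes that fell in these intervals became 3492, 5863 and 6992. The 3505, 5571 and 6488 genes that rose became 2767, 4045 and 4720, and the all-gene medians -0.03, -0.11 and -0.18. Called hosts numbered 5, 5 and 7 with that scaling.

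Gas5 in knockout cells began at 120, 112 and 97.2 TPM, reached 64.6, 68.7 and 73.1 TPM after 1 day and 54.6, 45.5 and 55.4 TPM after 3 days of RA. The 3 days did not overlap, and both steps passed, -0.66 (SE 0.09, adjusted p = 8.49e-05) and then -0.41 (SE 0.09, adjusted p = 0.00227). Snhg1 stood at 115, 112 and 108 TPM, then at 91.4, 95.5 and 98.5 TPM, and at day 3 at 55.5, 49.8 and 57.3 TPM. Its first step was -0.23 (SE 0.11, adjusted p = 0.134) and did not pass, while its second was -0.80 (SE 0.11, adjusted p = 2.06e-05). Snhg12 was at 84.1, 88.2 and 83.9 TPM, then at 54.0, 52.2 and 47.9 TPM, and ended at 34.3, 37.1 and 37.1 TPM. Both of its steps passed, -0.72 (SE 0.09, adjusted p = 3.48e-05) and -0.49 (SE 0.09, adjusted p = 0.000455).

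Snhg4 fell in both steps too, at -1.14 (SE 0.14, adjusted p = 2.49e-05) and -0.55 (SE 0.14, adjusted p = 0.00459). Snhg5 fell by 0.72 to day 1 (SE 0.12, adjusted p = 0.000322), and its second step of -0.13 did not pass (SE 0.12, adjusted p = 0.417). Snhg6 fell by 0.63 to day 1 (SE 0.09, adjusted p = 9.18e-05) and its second step was -0.0020 (SE 0.09, adjusted p = 1), so its mean was level at 74.8 and 74.9 TPM. Snhg8 stood at -0.10 for the first step (SE 0.23, adjusted p = 0.813) and then fell by 0.65 (SE 0.23, adjusted p = 0.03), a call lost without knockout replicate 1 or 3 at day 1 (adjusted p = 0.0659 and 0.0895), without replicate 1 or 3 at day 3 (0.0536 and 0.111) and with no filter on low values (0.0505). Its fall from day 0 to day 3 was lost without replicate 3 at day 3 (-0.64, adjusted p = 0.0533). Snhg3 passed in no comparison of days, at -0.29 and -0.30 for the 2 steps and -0.59 in all (SE 0.34 each).

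The pace can be described as the share of the day 0 to day 3 change, on the log2 scale, that was present at day 1. For Gas5 it was 102% in wild-type and 62.0% in knockout cells, for Snhg12 112% and 59.4%, for Snhg5 118% and 84.8%. For Snhg1 the shares were 67.1% and 22.2%, and for Snhg4 77.8% and 67.2%. The share was lower in knockout cells for each of these 5 genes. These shares have no test of their own, and both depend on the same day 0 libraries as the fold changes above.

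**Figure D2:**
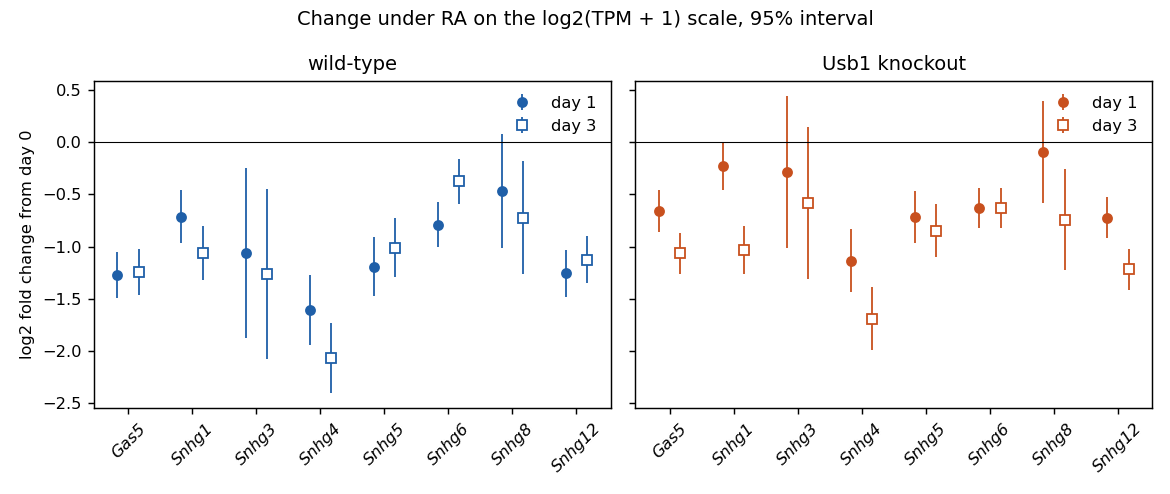
Log2 fold change from day 0 on the log2(TPM + 1) scale (vertical axis) for each host gene at day 1 (filled) and day 3 (open), in wild-type (left) and knockout cells (right), with 95% limma intervals. For Gas5 the 2 days coincide in wild-type cells at -1.27 and -1.24, whereas in knockout cells they lie apart at -0.66 and -1.07.

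At day 1 the host RNAs were higher in knockout than in wild-type cells. All 8 fold changes were positive and 5 genes, namely Gas5, Snhg5, Snhg1, Snhg12 and Snhg6, were higher at an adjusted p under 0.05. Among all genes tested, 3.74% were higher and 13.6% were lower. The median log2 fold change was 0.39 for the hosts and -0.13 for all genes. The all-gene median depends on scaling and was 0.04 with libraries set to an equal median and 0.01 after quantile normalization. The sums of the 8 genes did not overlap, at 318 to 369 TPM in wild-type and 442 to 458 TPM in knockout libraries.

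Gas5 measured 64.6, 68.7 and 73.1 TPM in the knockout libraries, against 45.8, 50.04 and 51.8 TPM without the knockout. The means had a ratio of 1.40, and the difference on the log2 scale was 0.48 (SE 0.09, adjusted p = 0.00313). Snhg5 was at 65.4, 84.9 and 69.5 TPM in wild-type libraries against 102, 104 and 102 TPM in knockout libraries, an order kept for the genes that follow. The difference was 0.49 (SE 0.12, adjusted p = 0.0113), and the knockout libraries of this gene varied little among themselves. Snhg1, at 65.1, 80.4 and 71.1 TPM against 91.4, 95.5 and 98.5 TPM, was higher by 0.40 (SE 0.11, adjusted p = 0.0202). Snhg12, at 35.04, 43.0 and 39.2 TPM against 54.0, 52.2 and 47.9 TPM, was higher by 0.39 (SE 0.09, adjusted p = 0.01). Snhg6, at 59.3, 60.0 and 59.8 TPM against 70.0, 77.5 and 77.0 TPM, was higher by 0.32 (SE 0.09, adjusted p = 0.0249). In each of these 5 genes every knockout library was above every wild-type library.

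The other 3 did not pass. Snhg4 was at 10.8, 16.2 and 13.5 TPM against 18.2, 21.1 and 15.5 TPM. Its groups overlapped and the difference of 0.41 missed the threshold (SE 0.14, adjusted p = 0.0566). Snhg8 was at 34.3, 32.6 and 32.3 TPM against 39.8, 36.8 and 43.0 TPM, which did not overlap, with a fold change of 0.26 (SE 0.23, adjusted p = 0.499) and a 95% interval from -0.22 to 0.74. Snhg3 had a fold change of 0.13 (SE 0.34, adjusted p = 0.853) on values under 3 TPM, and -0.06 without wild-type replicate 3 (adjusted p = 0.966).

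The count of 5 rests in part on single libraries. Wild-type replicate 1 at day 1 was the lowest library of that day for Gas5, Snhg1, Snhg4, Snhg5, Snhg12 and, by a small margin, Snhg6. Without it only Gas5 passed (0.43, adjusted p = 0.0208 by limma). Without wild-type replicate 3 or knockout replicate 2 at day 1, 3 genes passed, with Snhg1 and Snhg6 lost in each case. Both were also lost without knockout replicate 3 (adjusted p = 0.0795 and 0.0942), and Snhg6 without wild-type replicate 2 (adjusted p = 0.0574). Over all genes, the 819 higher and 2970 lower became 493 and 1612 without wild-type replicate 1, and 513 and 1562 without knockout replicate 3. Scaling libraries to an equal median gene, which turned that split to 1932 higher and 1146 lower, gave 6 genes, with Snhg4 added at 0.64 (adjusted p = 0.00692). Quantile normalization, with a split of 1364 and 1589, also gave 6. The 5 fold changes were below 1.5-fold, so none of the 5 passed when that size was required as well, and a 2-fold rise was reached by 0.462% of all genes.

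**Figure D3:**
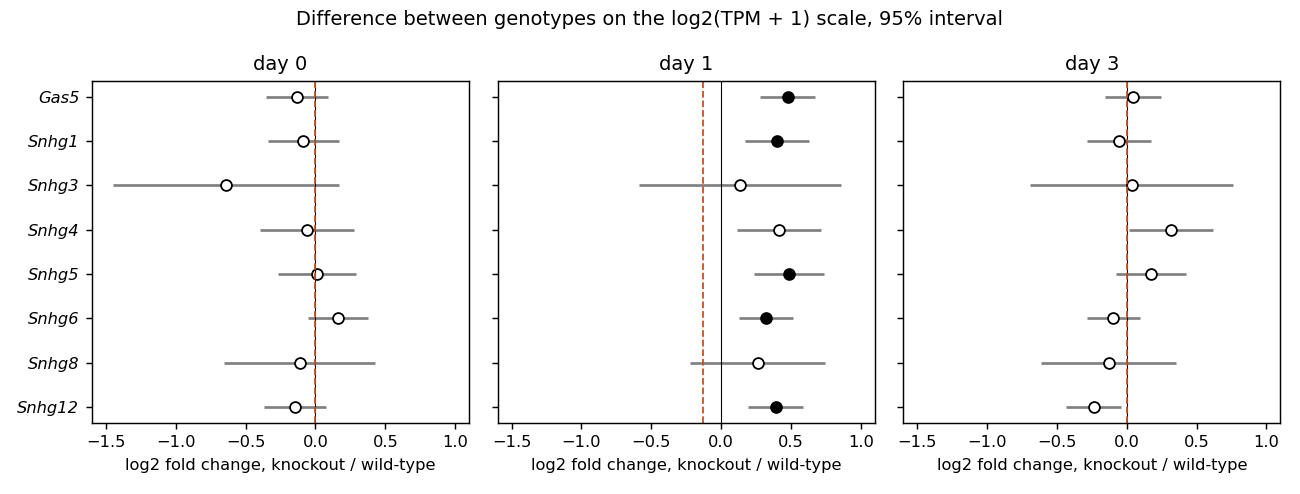
Log2 fold change of knockout over wild-type cells (horizontal axes) for each host gene at day 0, 1 and 3 on the log2(TPM + 1) scale, with 95% limma intervals. Filled points passed at an adjusted p under 0.05, and the dashed line is the median of all genes tested, which is -0.13 at day 1. The 5 filled points, all at day 1, lie between 0.32 and 0.49.

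Whether the response to 1 day of RA differed between genotypes was tested as an interaction. Gas5 passed, with its day 1 change 0.61 less negative in knockout cells (SE 0.14, adjusted p = 0.037). It was 1 of 8 genes, against 0.704% of all genes with a positive and 1.53% with a negative difference. That background, 154 and 334 genes, rose to 904 and 2327 without wild-type replicate 2 at day 0 and lay between 57 and 87 positive and 144 and 234 negative without any other single library of day 0 or day 1. At least 2-fold was reached by 0.187% of all genes in the positive direction and by 0 hosts. Snhg12 missed the threshold at 0.53 (SE 0.14, adjusted p = 0.0607), as did Snhg1 at 0.48 (SE 0.16, adjusted p = 0.135), Snhg5 at 0.48 (SE 0.18, adjusted p = 0.178) and Snhg4 at 0.48 (SE 0.21, adjusted p = 0.252). Snhg6 had the smallest value, 0.16 (SE 0.13, adjusted p = 0.575). The median of the 8 values was 0.48, against -0.12 for all genes, and 5 had an unadjusted p under 0.05. All 8 were positive with every library in the fit, but those of Snhg3 and Snhg8 rest on the wild-type libraries of day 0. Snhg8, at 0.37 (SE 0.34, adjusted p = 0.6), was at -0.29 without replicate 1 (adjusted p = 0.526) and at 1.03 without replicate 2 (adjusted p = 0.00222). Snhg3, at 0.78 (SE 0.51, adjusted p = 0.442), was at 0.03 without replicate 1 (adjusted p = 0.993) and at 1.52 without replicate 2 (adjusted p = 0.0329). The Gas5 call was lost in 15 of the 29 alternatives, with adjusted p values up to 0.138. That value was reached without wild-type replicate 1 at day 0, where the difference was 0.56.

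By day 3 the test again separated no host. Of the 8 genes, 0 differed by limma at an adjusted p under 0.05, against 3.96% of all genes that were higher and 3.56% that were lower, and voom on recovered reads called 0 of 7. Those 867 and 778 genes became 508 and 482 without wild-type replicate 1 and 257 and 334 with only the libraries of day 3 fitted. At an unadjusted p under 0.05 there were 2, in opposite directions. Snhg12, at 41.6, 48.7 and 38.6 TPM in wild-type against 34.3, 37.1 and 37.1 TPM in knockout cells, had a fold change of -0.24 (SE 0.09, adjusted p = 0.158), with every knockout library below the wild-type. Snhg4, at 8.29, 10.9 and 9.30 against 11.8, 11.8 and 12.5 TPM, had one of 0.32 (SE 0.14, adjusted p = 0.226), with every knockout library above. The median was -0.01 for the hosts and 0.00 for all genes. The interaction from day 0 to day 3 passed for 0 of 8 by limma, with 0 at an unadjusted p under 0.05 and 0 of 7 by voom, against 3.53% of all genes in the positive and 2.62% in the negative direction. With an equal median the 771 positive and 574 negative genes became 452 and 611, and 0 hosts passed. Here too the wild-type libraries of day 0 set the values of 2 hosts. Snhg8, at -0.02 (adjusted p = 0.987), was at -0.68 without replicate 1 (adjusted p = 0.0493) and 0.64 without replicate 2 (adjusted p = 0.0225), and Snhg3, at 0.68 (adjusted p = 0.468), was at -0.07 and 1.42 (adjusted p = 0.954 and 0.0383). Over all genes the 771 positive and 574 negative calls became 468 and 305 without replicate 1 and 1762 and 2019 without replicate 2.

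Other non-coding snoRNA hosts were looked at for comparison. Counts and medians of this list and of those that follow come from the main fit alone, without the other scalings. Of 11 listed in the table, 7 fell and 1 rose by day 1 without the knockout, with a median of -0.59, where 12.5% of all genes fell and 25.5% rose. Between genotypes on that day 3 were higher and 0 lower in knockout cells, with a median of 0.25, where 3.74% of all genes were higher and 13.6% lower. The 3 were Zfas1, Epb41l4aos and Dancr. Zfas1 went from 86.5 ± 3.52 to 34.9 ± 3.47 TPM in wild-type cells and from 75.7 ± 4.65 to 46.9 ± 0.928 TPM in knockout cells, and the day 1 difference was 0.42 (SE 0.08, adjusted p = 0.00278). Dancr, at 21.2 against 32.6 mean TPM at day 1, was higher by 0.60 (SE 0.15, adjusted p = 0.0148). Epb41l4aos was higher by 0.46 (SE 0.12, adjusted p = 0.0138). Snhg15, Snhg17, Snhg20 and Snhg14 fell by day 1 in wild-type cells (-0.43, -0.78, -0.59 and -0.76) but were not called between genotypes, where the values were 0.25, 0.07, 0.40 and -0.11. Snhg11 went the other way over the first day, rising in wild-type cells by 0.90 (SE 0.19, adjusted p = 0.00156). Snhg10, Snhg18 and Snhg9, with means under 10 TPM in both genotypes at day 1, passed in neither comparison.

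Most genes for proteins that bind or assemble snoRNAs fell between day 0 and day 1 without the knockout. Of the 4 box C/D proteins 2 fell, of the 4 box H/ACA proteins 4 fell, and of 9 assembly factors 6 fell, with medians of -0.38, -0.44 and -0.49, where 12.5% of all genes fell. Nop56, a core box C/D protein whose gene itself encloses 5 snoRNA genes, dropped between 483 ± 39.9 and 243 ± 7.95 TPM, which is -0.98 on the log2 scale (SE 0.06, adjusted p = 1.13e-08). At day 1, 2 of 4, 1 of 4 and 5 of 9 were higher in knockout than in wild-type cells and 0 lower, where 3.74% of all genes were higher and 13.6% lower. Naf1, which assembles H/ACA particles, was at 61.4 ± 0.966 against 84.3 ± 2.92 TPM, a difference of 0.45 (SE 0.07, adjusted p = 0.00057). Ruvbl1 and Ruvbl2, ATPases of the assembly complex, were higher by 0.41 and 0.35 (SE 0.05 and 0.06, adjusted p = 0.000158 and 0.00131). Fbl, the methyltransferase of box C/D particles, was at 146 ± 1.40 against 175 ± 9.32 TPM, a difference of 0.26 (SE 0.07, adjusted p = 0.0223). It was already higher at day 0, at 158 ± 12.7 against 200.1 ± 15.1 TPM (0.34, SE 0.08, adjusted p = 0.0151). At day 0, 2 of 4 box C/D proteins were higher, 1 of 4 box H/ACA proteins was higher and 1 lower, and 0 of 9 assembly factors were called, where 5.08% of all genes were higher and 6.80% lower.

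Ribosome biogenesis genes also fell over the first day. At day 1, 12 of 13 fell in wild-type and 13 of 13 in knockout cells, with medians of -0.71 and -0.47, where 12.5% and 11.7% of all genes fell. Between genotypes at day 0, 3 of the 13 were lower and 0 higher in knockout cells, with a median of -0.11, where 6.80% and 5.08% of all genes were. At day 1, 2 were higher and 1 was lower, with a median of 0.11, where 3.74% of all genes were higher and 13.6% lower. In the interaction from day 0 to day 1, 4 of 13 passed with a positive difference and 0 with a negative one, with a median of 0.19, where 0.704% and 1.53% of all genes did so, a difference that takes in the day 0 values. The 2 genes higher at day 1 were Ncl, for nucleolin, at 620 ± 13.3 against 830 ± 27.4 TPM (0.42, SE 0.05, adjusted p = 0.000116), and Bop1 (0.19, SE 0.06, adjusted p = 0.0345). Ubtf, an activator of RNA polymerase I, was lower by 0.19 (SE 0.04, adjusted p = 0.00932).

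Ribosomal protein genes and other genes known for a TOP start were followed over the same days. Of 79 ribosomal protein genes, 11 rose and 5 fell in wild-type cells at day 1, with a median of 0.14, where 25.5% of all genes rose and 12.5% fell. By day 3, 7 of the 79 had risen and 30 had fallen since day 0, with a median of -0.17, where 29.6% of all genes had risen and 22.5% had fallen. In knockout against wild-type cells 29 were higher at day 0, 25 at day 1 and 6 at day 3, with 0 lower on any day, and the shares of all genes that were higher were 5.08%, 3.74% and 3.96%. Of 13 other mRNAs known for a TOP start, 7 fell and 1 rose by day 1 without the knockout. By day 3, 12 had fallen and 1 had risen. In knockout against wild-type cells 1 was higher and 1 lower at day 0, 8 were higher at day 1 and 9 at day 3, to be read against the same shares of all genes. Npm1 was the largest of these at day 1, at 1409 ± 78.1 against 1891 ± 76.5 TPM (0.42, SE 0.07, adjusted p = 0.00128).

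NMD factors were measured because several spliced host RNAs are known substrates of this route. Of 10 factors, 5 were lower and 0 higher in knockout than in wild-type cells at day 1, with a median of -0.26. Among all genes 13.6% were lower and 3.74% higher, with a median of -0.13. That all-gene median depends on scaling and was 0.04 with an equal median, under which the factors were not counted. Upf2 stood at 64.0 ± 4.23 against 39.2 ± 2.90 TPM, a difference of -0.69 (SE 0.09, adjusted p = 0.000129), Smg6 at 32.2 ± 4.33 against 22.4 ± 2.27 TPM and Smg1 at 33.5 ± 6.03 against 19.8 ± 3.89 TPM. Upf1, the central helicase, did not pass (0.06, SE 0.09, adjusted p = 0.749). At day 3, 0 of 10 passed by limma. Upf2 was already lower at day 0 (-0.53, SE 0.10, adjusted p = 0.00423), when 0 of the 8 hosts passed. Whether these factors have a part in the day 1 difference of the hosts was not tested.

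Some markers of cell state differed between genotypes on each of the 3 days. At day 1, 3 of 5 pluripotency markers were higher in knockout cells, with summed levels of 2821 ± 41.2 against 3561 ± 42.0 TPM, and Nanog among them stood at 713 ± 22.1 against 1026 ± 19.1 TPM. Of 5 primitive endoderm markers, 4 were lower, with sums of 75.5 ± 1.20 against 20.1 ± 1.46 TPM, and 3 of 5 RA response markers were lower, with sums of 1088 ± 32.6 against 585 ± 21.6 TPM. The most abundant RA response marker, Stra8, stood at 869 ± 32.3 against 396 ± 21.7 TPM, and Gata6, a primitive endoderm regulator, at 29.8 ± 1.24 against 8.51 ± 1.41 TPM. Of 13 proliferation genes, 1 was higher and 2 were lower, with sums of 3921 ± 98.9 against 3815 ± 58.3 TPM. Neural markers had 1 lower of 5 (sums 98.0 ± 5.44 against 101 ± 2.46 TPM), and fibroblast markers 1 lower of the 4 tested (24.0 ± 2.42 against 19.0 ± 1.04 TPM), with Postn listed at 0. The counts of proliferation, neural and fibroblast genes are to be read against the 13.6% of all genes that were lower and the 3.74% that were higher. At day 0, when no host was called, 2 of 5 primitive endoderm, 2 of 5 RA response and 2 of 13 proliferation genes were lower, and 1 of 5 neural and 1 of 13 proliferation genes were higher, where 6.80% of all genes were lower and 5.08% higher. At day 3, again with no host called, 5 of 5 pluripotency (sums 271 ± 20.8 against 509 ± 31.9 TPM), 4 of 4 fibroblast, 3 of 5 neural and 3 of 13 proliferation genes were higher, and 5 of 5 primitive endoderm, 3 of 5 RA response and 1 of 13 proliferation genes were lower, where 3.96% of all genes were higher and 3.56% lower. A count of 1 of 13 is near these shares. Their part in the host difference was not tested.

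**Figure D4:**
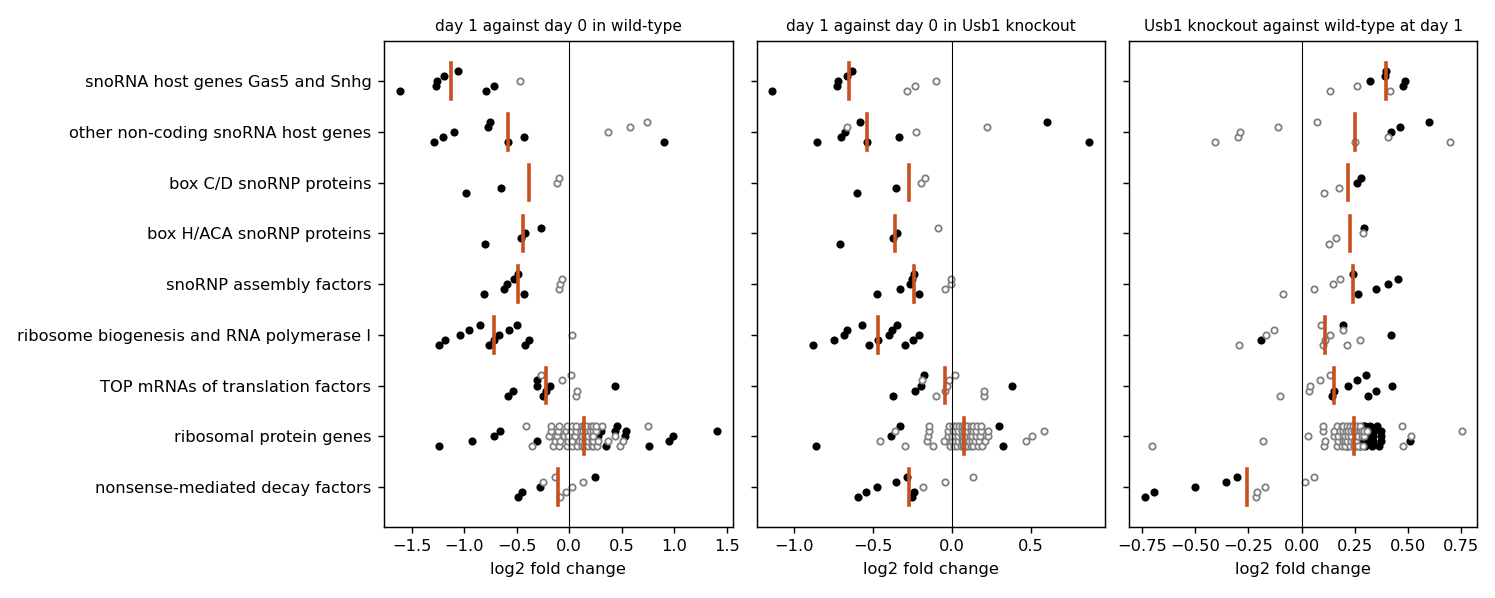
Log2 fold changes (horizontal axes) of the 8 host genes and 8 comparison lists, with 1 point per gene (filled where the adjusted p was under 0.05) and an orange bar at the median of the list. From day 0 to day 1 in wild-type cells the hosts have a median of -1.13 and ribosomal protein genes one of 0.14, and at day 1 between genotypes the medians are 0.39 and 0.25, with NMD factors at -0.26.

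Finally, the genes with the profile most like each host over the 17 libraries were found by Pearson r on log2(TPM + 1). They were sought among 10216 genes with a mean of at least 10 TPM, or 10217 for Snhg3. These correlations are descriptions, since libraries of a group share treatment and genotype. Snhg1 was most like Rabggtb (r = 0.990), Snhg12 most like Nop56 (0.986) and Snhg5 most like Zfas1 (0.974). Gas5 was nearest to Notum (0.971), then Gnl3 (0.967) and Zfas1 (0.966), and Snhg4 was nearest to Nat10 (0.981). Snhg6 stood closest to Mycn (0.959). Snhg8 (0.926, Bola1) and Snhg3 (0.863, Ndufaf1) had no gene as close. The second and the third nearest genes were AI506816 and Ebna1bp2 for Snhg1, Tdh and Nat10 for Snhg12, Epb41l4aos and Tfeb for Snhg5, and Foxd3 and Ctbp2 for Snhg4. They were Mrm1 and Hook2 for Snhg6, Cfap298 and H2afj for Snhg8, and Ddx24 and Cox10 for Snhg3.

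Several of these nearest genes are themselves snoRNA hosts. Of the 22 distinct genes that make up the 3 nearest of each host, 6 enclose an annotated snoRNA gene on their strand (27.3%), against 1.97% of the 10120 annotated genes compared. They are Rabggtb, Gnl3 and Zfas1 with 3 each, Nop56 with 5, and AI506816 and Epb41l4aos with 1 each. Rabggtb, a subunit of a protein prenylation enzyme, went from 211 ± 6.98 to 139 ± 10.7 TPM at day 1 in wild-type cells and from 200 ± 1.13 to 174 ± 2.47 TPM in knockout cells. Gnl3, which encodes the nucleolar protein nucleostemin, went from 154 ± 0.338 to 55.7 ± 3.47 TPM and from 140 ± 2.75 to 74.3 ± 3.65 TPM. In both genes every knockout library at day 1 was above every wild-type library, as in Snhg1 and Gas5. Both were picked for likeness over these same libraries, so the shared order is no separate evidence.

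Among the 8 hosts, pairwise r ran from 0.40 to 0.95 with a median of 0.79 over 28 pairs. Without Snhg3 and Snhg8 it ran from 0.61 to 0.95 over 15 pairs. Genes that share a locus with a host gave mixed values. Slc3a2, next to Snhg1, was at 255 ± 11.4 against 411 ± 17.8 TPM between genotypes at day 1 and at 333 ± 3.91 against 406 ± 28.5 TPM at day 0. Zbtb37, which overlaps Gas5, was at 7.47 ± 0.805 against 5.56 ± 1.66 TPM at day 1, with overlapping libraries (-0.39, SE 0.20, adjusted p = 0.22). Of the genes that overlap Snhg3, Gm17300, on the other strand over 1611 bases, was at 17.1 ± 2.22 against 22.7 ± 1.02 TPM (0.40, SE 0.13, adjusted p = 0.0454), with every knockout library above, and Rcc1 at 159 ± 6.52 against 154 ± 8.52 TPM (-0.05, SE 0.07, adjusted p = 0.721). Mcmdc2, which overlaps Snhg6, was under 1 TPM in every library.

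**Figure D5:**
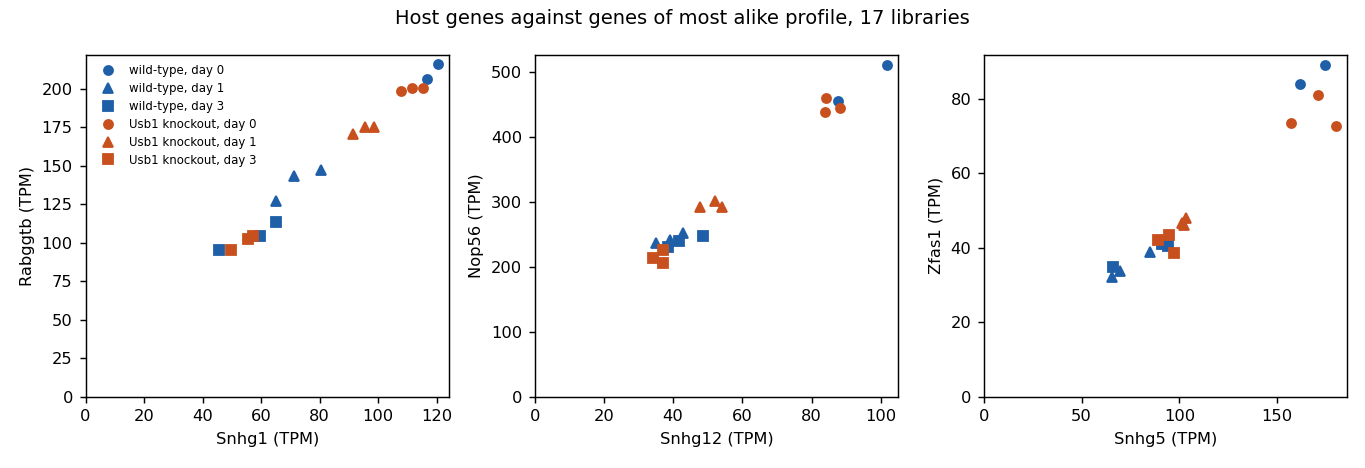
TPM of Snhg1, Snhg12 and Snhg5 (horizontal axes) against their most alike genes Rabggtb, Nop56 and Zfas1 (vertical axes) in the 17 libraries, with colour for genotype and symbol for day. In all 3 panels the day 1 knockout libraries (orange triangles) lie above and right of the day 1 wild-type libraries (blue triangles). Pearson r on the log2 scale is 0.990, 0.986 and 0.974. The genes on the vertical axes were picked for high r over these same libraries, so their likeness is no separate evidence.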

How the data were processed

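RNA of the 17 samples was made into NEBNext Ultra libraries and sequenced on an Illumina NovaSeq instrument. The authors deposited TPM, calculated from gene length and the reads counted per gene. The submitters' processing notes name HISAT2 2.1.0, StringTie 1.3.6 and GRCm38.p6. The counting tool and its strand setting are not given in the sources used here. Reads were recovered from TPM, GENCODE M21 exon lengths and the value of 1 read in each library. Between 95.9% and 96.6% of values per library came out whole within 0.01.

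Genes with at least 1 TPM in at least 2 libraries (21871) were tested on log2(TPM + 1), which understates changes of low genes. limma 3.58.1 in R 4.3.3 was fitted to the 6 group means with a variance trend. P-values were two-sided and adjusted by Benjamini-Hochberg over all genes tested, and called under 0.05. The authors' DESeq2 test needs counts, so limma-voom on recovered reads was an alternative. It leaves out Snhg4, which has no exon length here.

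The 8 hosts and all lists were chosen with earlier results of these data known. The text names all 8 hosts, every other non-coding host, up to 3 genes with the largest rise or fall per list, and the 3 genes most alike to each host. Comparisons with day 0 or within a day share libraries. Snhg7, Snhg16 and Nopchap1 were not analysed here. Alternatives were the pseudocount, the filter, the fold required, scaling, the variance model, the libraries fitted, a replicate block, voom, the gene set and leaving out each library.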

Additional observations from a re-analysis of the deposited data

Results flagged for a closer look

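For Gas5, the change from day 0 to day 1 differed between genotypes by a test of the difference itself, by 0.61 on the log2(TPM + 1) scale (SE 0.14, adjusted p = 0.037 by limma). Its log2 fold change was -1.27 in wild-type and -0.66 in knockout cells. The wild-type arm rests on 2 libraries at day 0, of which replicate 1 stood apart as described above. The difference was positive in all 29 alternatives, from 0.53 to 0.72, but many of them cannot change it. The filter, the fold required, the variance model and leaving out a day 3 library change only its p-value or call. The call was lost in 15 of the 29, for example without wild-type replicate 1 at day 1 (adjusted p = 0.0941 by limma).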

How the results depend on the processing

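Of the 319 alternative counts of called hosts, 282 stayed within 1.5 times the count reported. Much of this is built in, because many settings leave out a library that the comparison does not use. Counts of 0 that stayed at 0 are also among them. Requiring a 2-fold change left 0 of 5 hosts between genotypes at day 1, 0 of 3 from day 1 to day 3 in wild-type cells, 1 of 5, 0 of 5 and 4 of 7 in knockout cells (day 0 to 1, day 1 to 3 and day 0 to 3), and 0 in the interaction at day 1. Requiring 1.5-fold left 0, 0 and 2 of the first, the second and the knockout day 1 to 3 counts. Fitting only the libraries compared left 1 from day 1 to 3 and 5 from day 0 to 3 in wild-type cells, and 0 in the interaction at day 1. That interaction also gave 0 without a filter and with an equal median, and 2 at a minimum of 5 TPM, with voom and with protein-coding genes and the hosts alone.

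Leaving out 1 library at a time gave 0 to 2 hosts between genotypes at day 0, 1 to 5 at day 1, 1 to 4 from day 1 to 3 in wild-type cells, 0 to 3 in the interaction at day 1 and 0 to 2 in that at day 3. The other counts stayed between 6 and 8 in wild-type cells and between 4 and 7 in knockout cells.

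Among the values of single hosts given above, signs turned in 18 cases. For Snhg8 between genotypes at day 0, the value was 0.0125 with an equal median and 0.55 without wild-type replicate 1, and that for Snhg3 was 0.11. Its leave-one-out range there was -1.39 to 0.11 and that of Snhg8 was -0.77 to 0.55. The others were Snhg3 between genotypes at day 1 (-0.0555 to 0.38), Snhg8 from day 0 to 1 in wild-type cells (-1.13 to 0.19) and Gas5 from day 1 to 3 (-0.0320 to 0.0632, with -0.0241 without wild-type replicate 1 at day 1). In knockout cells Snhg6 from day 1 to 3 ran from -0.0745 to 0.0629. In the interactions Snhg8 ran from -0.29 to 1.03 at day 1 and from -0.68 to 0.64 at day 3, and Snhg3 from -0.0729 to 1.42 at day 3. The cause was not tested.

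Replicate numbers did not pair the samples: same-numbered libraries of different groups had a mean correlation of deviations of -0.0052 over 40 pairs, against 0.0026 over 80 others, and 6 of 17 libraries correlated best with their own number. With the replicate block, 5 hosts passed between genotypes at day 1, and in the interaction at day 1 Gas5 gave 0.61 (adjusted p = 0.0593) and Snhg12 0.51 (adjusted p = 0.0485), and it changed no other call of a host named above. Depth limits Snhg3, with a median of 8 reads.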

Other observations

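Some groups of genes differed between genotypes already at day 0, when 0 of the 8 hosts passed by limma (0 at an unadjusted p under 0.05, 0 of 7 by voom). Of 79 ribosomal protein genes 29 were higher in knockout cells and 0 lower, against 5.08% and 6.80% of all genes, with a summed level of 72247 ± 379 TPM in wild-type (n = 2) and 88884 ± 5938 TPM in knockout cells (n = 3). With libraries scaled to an equal median the split of all calls at day 0 turned from 1110 higher and 1488 lower to 1577 higher and 920 lower. Of 5 mRNAs known as targets of nonsense-mediated decay, 2 were higher and 0 lower. Atf4, a transcription factor of the amino acid response, was at 308 ± 4.25 against 466 TPM on average (0.60 on the log2 scale, SE 0.05, adjusted p = 1.61e-05). Trib3 was at 55.8 ± 1.11 against 89.5 ± 10.2 TPM (0.67, SE 0.12, adjusted p = 0.00316). Both remained higher at day 1, by 0.73 and 0.91 (adjusted p = 3.65e-07 and 5.97e-05), and neither passed at day 3.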
